A study of Mus musculus with 40 samples.

Results

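The 9 genes described here carry the insulin and insulin-like growth factor (IGF) signal from the hormone to the nucleus. They are Igf1 (the circulating and tissue growth factor), Insr and Igf1r (the receptor tyrosine kinases), Irs1 and Irs2 (the adaptor proteins that the receptors phosphorylate), Pik3r1 (the regulatory subunit of phosphoinositide 3-kinase), Akt1 and Akt2 (the protein kinases downstream of it) and Foxo1 (the transcription factor that AKT keeps out of the nucleus). They were taken by name, whatever their values, from 21938 protein-coding genes of the GENCODE M21 annotation, and every peak of 4 histone marks over the gene body and 20 kb on each side was collected in the GRCm38 assembly. The windows were 61064 bp (Akt1) to 320842 bp (Igf1r) long and held 983 of the 457842 peaks in the deposited lists.

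The tissue, iBAT in the labels, was brown fat from C57BL/6N mice, all of them wild type and 20 weeks old. Mice 1 and 2 were warm on normal chow (NCD), mice 4 and 5 cold on NCD, mice 7 and 8 warm on high-fat diet (HFD), and mice 10 and 11 cold on HFD, so each condition had 2 mice and each diet or temperature 4. HFD replaced the chow at 8 weeks of age for 12 weeks, and cold meant 24 h at 4 °C. Chromatin of each mouse was immunoprecipitated for H3K4me3 (a mark of active start sites), H3K27ac (active start sites and enhancers), H3K4me1 (enhancers, active or poised) and H3K27me3 (Polycomb repression), and an input library served as the control for peak calling, which gave 32 peak lists. The tissue was dissociated whole, so a strong mark in few cells and a weak mark in many cells cannot be told apart.

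List lengths varied widely between mice. H3K4me3 lists held 13517 to 24104 peaks and H3K27ac lists 3224 (mouse 7) to 40604 (mouse 11). H3K4me1 lists held 12 (mouse 7), 18 (mouse 10), 592 (mouse 1) and, in the other 5 mice, 7774 to 27568 peaks, and H3K27me3 lists held 20 to 6428. The shortest H3K27ac lists and the shortest H3K4me1 lists therefore came from mice 7 and 10, both on HFD. Fold enrichment itself moved with the library, the Insr start-site H3K4me3 peak ranging from 2.24 to 85.7 over mice. Peak heights were therefore placed on one scale by their percentile within the own list, the percentage of that list's peaks with a lower fold enrichment over input. Among markers of adipocytes, Cidea, Dio2, Pparg and Plin1 had H3K4me3 and H3K27ac at a start site in 8 of 8 mice and Ucp1 in 8 and 5. The other 3 were lower, Prdm16 with 7 and 3 mice, Adipoq with 7 and 6 and Fabp4 with 4 and 4. The study treats Pparg, Adipoq and Fabp4 as markers common to adipocytes rather than of brown ones. Markers of other cells were at a start site for H3K4me3 in 0 to 2 mice (4 macrophage genes), 4 to 8 (4 endothelial genes), 4 to 7 (3 stromal genes), 4 for Acta1 and 0 for the other 3 muscle genes, and 0 for the liver and neuron genes. H3K27ac was at the 4 endothelial start sites in 6 or 7 mice. The part of endothelial and stromal chromatin in the values below was not tested.

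Binding of insulin or IGF1 activates the receptor kinase, IRS proteins dock phosphoinositide 3-kinase at the membrane, and the lipid it makes recruits AKT. In brown adipocytes this pathway drives glucose uptake and lipid storage, supports differentiation and survival, and ends at FOXO proteins, which AKT phosphorylates and removes from their target genes. AKT2 is the isoform best known for insulin-stimulated glucose uptake in fat and muscle, and AKT1 for growth.

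Promoter sequences are shown because start sites of these genes, even of the same gene, differed in CpG content and in the marks over them. RefSeq promoter windows (GRCm38.p6, 250 bases before to 50 after a start site) were found for 8 of the 9 genes, 13 windows in all, and none matched Insr. The number of CG dinucleotides in the 300 bases was 48 in Igf1r, 41 in Irs2, 31 in Foxo1 and 28 in Irs1, against a median of 7 over 32851 promoter windows, and 6 in Igf1. Pik3r1 had 34 at the start of its long transcript and 6 at the start of its short one, and Akt1 42 and 8 at its 2 RefSeq starts. The Akt2 windows had 12, 0, 5 and 2, in order along the gene. The 250 bases upstream of 4 of these starts follow, 5′ to 3′ on the strand of the gene, with each CG in capitals. They lie at chr13:101768218-101768467 (long Pik3r1 transcript, minus strand), chr13:101692631-101692880 (short Pik3r1 transcript, minus strand), chr7:27591302-27591551 (first Akt2 start, plus strand) and chr3:52268087-52268336 (Foxo1, plus strand).
Pik3r1 long: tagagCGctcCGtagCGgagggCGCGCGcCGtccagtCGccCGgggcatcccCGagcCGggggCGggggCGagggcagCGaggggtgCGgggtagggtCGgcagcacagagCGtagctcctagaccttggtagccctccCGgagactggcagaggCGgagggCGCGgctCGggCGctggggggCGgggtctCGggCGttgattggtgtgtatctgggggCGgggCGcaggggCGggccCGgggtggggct
Pik3r1 short: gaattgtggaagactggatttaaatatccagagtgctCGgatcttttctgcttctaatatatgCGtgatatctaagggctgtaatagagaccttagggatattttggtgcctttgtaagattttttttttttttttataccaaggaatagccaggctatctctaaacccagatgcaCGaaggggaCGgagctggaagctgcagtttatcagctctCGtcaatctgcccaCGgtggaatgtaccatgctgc
Akt2 first: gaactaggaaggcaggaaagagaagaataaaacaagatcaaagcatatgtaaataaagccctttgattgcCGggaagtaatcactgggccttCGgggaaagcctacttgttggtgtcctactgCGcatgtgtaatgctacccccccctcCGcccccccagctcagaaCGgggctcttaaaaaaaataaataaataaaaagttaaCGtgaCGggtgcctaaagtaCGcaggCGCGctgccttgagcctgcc
Foxo1: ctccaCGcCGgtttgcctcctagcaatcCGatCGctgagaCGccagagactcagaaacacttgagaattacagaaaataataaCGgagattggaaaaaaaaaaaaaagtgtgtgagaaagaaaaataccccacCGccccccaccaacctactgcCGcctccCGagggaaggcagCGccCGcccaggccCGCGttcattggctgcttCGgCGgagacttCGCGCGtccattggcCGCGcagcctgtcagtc
An H3K4me3 peak overlapped the promoter window of the long Pik3r1 start in 7 mice and that of the short start in 3. At Foxo1 it did so in 8 mice and at the first Akt2 start in 3.

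Distal H3K27ac regions were the unions of peaks over the 8 mice with no summit within 1000 bp of a GENCODE M21 basic start site. They are shown by the 200 bases around the median summit. The Akt2, Irs1 and Igf1r windows are given because they hold the most frequent region, the highest-ranked region and a region with H3K4me3 in every mouse. They lie on the plus strand at chr7:27625379-27625578 (Akt2 intron), chr1:82283513-82283712 (Irs1 intron) and chr7:68129782-68129981 (Igf1r intron), with each CG in capitals.
Akt2 intron: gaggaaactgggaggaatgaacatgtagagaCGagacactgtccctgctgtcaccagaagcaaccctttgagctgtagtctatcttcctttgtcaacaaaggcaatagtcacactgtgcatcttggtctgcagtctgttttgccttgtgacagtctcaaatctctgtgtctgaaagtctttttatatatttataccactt
Irs1 intron: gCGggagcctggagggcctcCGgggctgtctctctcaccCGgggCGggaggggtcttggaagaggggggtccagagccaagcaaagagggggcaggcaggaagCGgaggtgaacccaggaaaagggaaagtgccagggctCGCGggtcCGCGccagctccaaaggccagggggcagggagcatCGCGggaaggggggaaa
Igf1r intron: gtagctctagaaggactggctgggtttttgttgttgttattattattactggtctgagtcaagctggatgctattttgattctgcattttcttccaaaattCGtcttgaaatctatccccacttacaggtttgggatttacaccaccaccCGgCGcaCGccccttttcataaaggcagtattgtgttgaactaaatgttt
The Irs1 window had 11 CG dinucleotides and 69.5% G and C, the Igf1r window 4 and 41.0%, and the Akt2 window 1 and 43.0%, against a median of 2 CG over 33328 distal H3K27ac windows.

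Short motifs were searched on both strands in the promoter and distal windows, the FOXO element (GTAAACA), the cAMP response element (TGACGTCA), the GC box (GGGCGG) and the E-box (CACGTG). The GC box was present in 7 of the 13 promoter windows of these genes and in 35.7% of all promoter windows, the E-box in 2 (Irs1 and Irs2) and 7.15%, the FOXO element in 1 (the upstream Akt1 start) and 3.65%, and the cAMP response element in 0 and 1.79%. In the 200-base windows of distal regions with H3K27ac in 4 or more mice, the FOXO element occurred at 1 Insr and 1 Akt2 region, and in 2.84% of all distal windows. The Insr window lies in an intron at chr8:3240563-3240762 (plus strand), and the element is in capitals, read on the opposite strand.
Insr intron: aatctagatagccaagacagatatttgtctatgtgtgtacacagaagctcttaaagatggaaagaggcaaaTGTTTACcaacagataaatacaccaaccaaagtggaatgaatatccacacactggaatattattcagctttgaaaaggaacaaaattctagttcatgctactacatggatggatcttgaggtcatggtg
This intronic Insr region had H3K27ac in 7 mice, every one except mouse 7, and overlapped H3K4me1 in 5 of them. A match is a description of the letters only.

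Both receptors had H3K4me3 at the start site in 8 of 8 mice, but Insr ranked high for H3K27ac and Igf1r low. For Insr, which binds insulin, the H3K4me3 percentile was 92.5 and 94.98 in mice 1 and 2, 58.0 and 79.8 in mice 4 and 5, 0.348 and 95.1 in mice 7 and 8, and 69.5 and 96.1 in mice 10 and 11. The Insr H3K27ac percentile was 94.9 and 93.7, 77.5 and 96.5, 5.63 and 99.8, and 94.9 and 96.8 in the same order. Mouse 7 was the lowest for both marks and the other 7 mice overlapped across diets and temperatures. For Igf1r, which binds IGF1, the H3K4me3 percentile was 58.0 and 62.1, 61.2 and 55.7, 13.8 and 93.6, and 0.0756 and 72.3, a narrow range on NCD and a wide one on HFD. H3K27ac was at the Igf1r start in 4 mice, numbers 2, 5, 8 and 11, which are 1 of the 2 mice in every condition, at percentiles of 23.4, 11.4, 76.4 and 44.4. Those 4 mice had H3K27ac lists of 28433 to 40604 peaks and the other 4 lists of 3224 to 30544, and the part of list length in this pattern was not tested.

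Away from the start, Igf1r had a second H3K4me3 region in an intron, chr7:68128663-68130323, 176524 bp downstream, in 8 of 8 mice with a median percentile of 68.2 (range 16.7 to 97.1), above the 59.6 of its own start site. H3K27ac lay within it in 4 mice, and no transcript of the full GENCODE set or of RefSeq started there, the nearest start site being that of Pgpep1l. Insr likewise had an intronic H3K4me3 region 58258 bp downstream, chr8:3220560-3221860, in 7 mice with a median percentile of 46.8. Its 2 distal H3K27ac regions with the most mice, both intronic, were chr8:3239699-3240924 (median percentile 53.1) and chr8:3255357-3256859 (78.5), each in 7 mice.

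The ligand gene Igf1 had H3K4me3 at a start site in 8 of 8 mice at a median percentile of 55.7 (range 31.0 to 87.7). H3K27ac was there in all 4 NCD mice, at 30.8, 78.0, 45.0 and 37.7 in mice 1, 2, 4 and 5, and in 1 of 4 HFD mice, at 39.2 in mouse 8. The HFD value lay within the range of the NCD values. Mouse 11, without the peak, had the longest H3K27ac list of all, whereas mice 7 and 10 had the shortest. The exact two-sided Fisher p was 0.143, the lowest of the members, in a design whose smallest possible p is 0.0286. Distal H3K27ac lay in 2 Igf1 introns, chr10:87872791-87874575 (median percentile 49.4) and chr10:87901296-87902723 (71.2), each in 4 NCD and 2 HFD mice.

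Of the adaptors, Irs1 had distal H3K27ac peaks in 7 mice and Irs2 in 4 mice. No distal Irs2 region was shared by 2 mice. A region with any summit within 1000 bp of a start site did not count as distal. Irs1, a main insulin receptor substrate in fat, had H3K4me3 in 8 mice at 72.6 and 65.8, 68.4 and 60.2, 4.41 and 54.0, and 24.4 and 66.2 in the order above, and H3K27ac at the start in 5 mice at 37.8 to 84.9. An intronic region 7804 bp downstream of its start, chr1:82281391-82288088, ranked higher, with H3K27ac in 7 mice (all but mouse 7) at a median percentile of 90.6 and a range of 55.1 to 98.4. H3K4me3 overlapped it in the same 7 mice, in mouse 2 by the 10298 bp promoter peak itself and in the other 6 by peaks separate from the promoter peak. Irs2, the second substrate, had H3K4me3 with its summit at the start in 6 mice, at 63.4, 44.0, 28.2, 56.2, 89.6 and 55.6 in mice 1, 2, 4, 5, 8 and 10. In mouse 11 a peak of 8974 bp covered the start with its summit farther away, at 81.8, and in mouse 7 the one peak of the window did not reach within 1000 bp of the start. H3K4me3 peaks with a summit over 1000 bp from any start site were in the Irs2 window in 8 of 8 mice. They numbered 1 to 3 per mouse, counting the covering peak of mouse 11. H3K27ac was at the Irs2 start in 5 mice, at 21.02 to 91.1, highest in mouse 11. No distal H3K27ac region of Irs2 was found in more than 1 mouse, and the highest, chr8:11003628-11005433 in mouse 11, lay in its exon at 77.8.

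Pik3r1 had 13 distal H3K27ac regions shared by 2 or more mice, the most of the 9 genes. At the long-transcript start H3K4me3 was found in 7 mice, at 94.7 (mouse 1), 71.1 and 81.6 (mice 4 and 5), 5.16 and 68.6 (mice 7 and 8) and 87.1 and 79.7 (mice 10 and 11), and a covering peak with its summit farther off, at 96.4, in mouse 2. H3K27ac had its highest start-site peak there in mice 1, 5, 8, 10 and 11, at 92.6, 91.5, 65.5, 14.4 and 85.2. Mouse 2 had no H3K27ac summit at a start, but a peak of 4698 bp, at 96.3, covered a start with its summit farther off. In mouse 4 the highest peak, at 89.0, lay over the start of the short transcript, and the H3K27ac region of the long start, chr13:101764711-101769408, was at 6.67 in that mouse. A second H3K4me3 region, chr13:101693458-101695346, was found in 8 of 8 mice at a median percentile of 49.9, within an intron of the long transcript and -2006 bp (upstream) from the start of the short one, over the start of a further transcript in the full GENCODE set. The H3K27ac region over it, chr13:101693410-101695717, was present in 5 mice. Between the 2 promoters lay a row of intronic H3K27ac regions, of which chr13:101727726-101729670 was the most frequent, in 7 mice at a median percentile of 81.0 with H3K4me1 in 5 of them.

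Akt1 and Akt2 encode related kinases and had opposite distal patterns. Akt1 had H3K4me3 at its start in 8 mice at 64.7 and 69.6, 71.5 and 70.4, 14.6 and 78.4, and 43.4 and 71.5, and H3K27ac in 6 at 40.1, 51.8, 6.66, 78.0, 72.3 and 85.8 (mice 1, 2, 4, 5, 8 and 11). Its window, shared with Siva1, Adssl1, Zbtb42 and Gm30238, held 2 distal H3K27ac regions, both in mouse 11 alone, the higher at chr12:112653436-112653789 and 59.7. Higher marks in that window belonged to a neighbour, the H3K4me3 region at the Gm30238 start, chr12:112692578-112694316, being in 8 mice at a median percentile of 83.7 against 70.0 at the Akt1 start.

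Akt2 had the narrowest range of H3K4me3 percentiles over mice and the highest median for H3K27ac. H3K4me3 at its starts was 85.5 and 78.3, 89.0 and 80.8, 75.8 and 86.6, and 73.3 and 82.1, the only member above 70 in every mouse, including mice 7 and 10. These values are the highest over 5 start sites. Ranked by the significance of the peak (−log10 q) instead of fold enrichment, mouse 4 was at 59.3. H3K27ac was 97.7 and 96.8, 99.2 and 98.2, 23.5 and 87.4, and 96.9 and 94.6, above 87 in 7 mice. Start sites in a pair of clusters were marked, chr7:27591078-27594132 (H3K4me3 in 8 mice, median percentile 81.4) and chr7:27605633-27608702 (8 mice, 54.8), and for H3K27ac the order was the other way, with 93.2 in 8 mice at chr7:27591717-27595514 and 96.9 in 7 mice at chr7:27603926-27610967. The intronic region chr7:27623529-27628387 was the single distal H3K27ac region of the 9 windows with a peak in all 8 mice, at a median percentile of 87.2, and H3K4me1 overlapped it in 5. Another distal region, chr7:27579076-27582746, lay -11193 bp (upstream) from the first start inside the gene 2310022A10Rik and had H3K27ac in 7 mice at a median of 73.6.

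Foxo1 had H3K4me3 with its summit at the start in 6 mice, at 69.4, 72.9, 20.1, 93.7, 76.3 and 92.9 in mice 1, 5, 7, 8, 10 and 11, and covering the start with a farther summit in mice 2 and 4, at 78.8 and 46.6. H3K27ac was there in 6 mice, at 76.9 and 79.5 in mice 1 and 2, 4.00 and 84.8 in mice 4 and 5, 5.04 in mouse 8 and 46.0 in mouse 11. Mouse 4 was the lowest of the 6, and the other 3 NCD mice were above both HFD mice with a peak. The low place of mouse 4 held for fold enrichment only. Ranked by −log10 q, it was at 65.1, with mice 8 and 11 at 23.5 and 56.2. An intergenic region at -10330 bp (upstream), chr3:52257818-52258700, had H3K4me3 in 8 of 8 mice at a median percentile of 49.8, with H3K27ac over it in 7 mice at a median of 27.4, and no transcript of the full GENCODE set or of RefSeq started there. In an intron, chr3:52342713-52344169 had H3K27ac in 6 mice, and H3K4me1 overlapped it in 4. The highest distal region of Foxo1 by median, chr3:52273924-52274589 at 57.9, was found in mouse 4 alone.

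**Figure D1:**
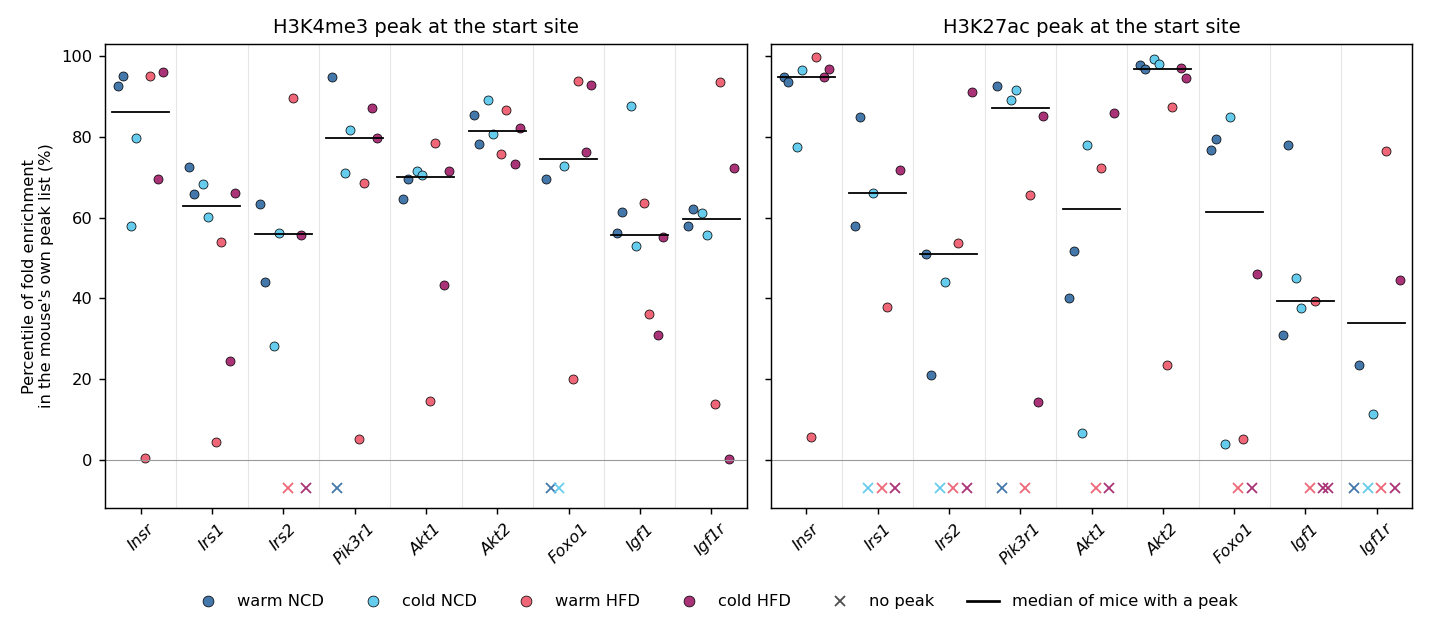
Percentile of the fold enrichment of the start-site peak within the own list (vertical axis, %) for 9 genes (horizontal axis), 1 point per mouse coloured by condition, crosses for mice with no peak and lines for the median of mice with one. For H3K27ac, Insr (median 94.9) and Akt2 (96.9) have a point in all 8 mice, and mouse 7 (warm HFD) is the low point of both.

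Where a gene had several start sites the highest start-site peak stood for it. Over the 9 genes, the order of median H3K4me3 percentiles was Insr (86.1), Akt2 (81.4), Pik3r1 (79.7), Foxo1 (74.6), Akt1 (70.0), Irs1 (63.0), Igf1r (59.6), Irs2 (55.9) and Igf1 (55.7), and neighbours in this order overlapped over mice. For H3K27ac it was Akt2 (96.9), Insr (94.9), Pik3r1 (87.1), Irs1 (66.1), Akt1 (62.0), Foxo1 (61.4), Irs2 (51.0), Igf1 (39.2) and Igf1r (33.9), and neighbours overlapped here too. Each median was over the mice with a peak only. For H3K27ac these were 8 mice at Akt2 and Insr and 4 to 6 at the other genes. H3K4me3 was at the start in all 8 mice for 6 of the 9 genes and for 41.5% of protein-coding genes, and H3K27ac for 2 of 9 (Insr and Akt2) and 3.11%. Mouse 7 set the second pair of values. Without it the members were the same 2 and the share of all genes was 15.3%, and without mice 7 and 10 they were Insr, Akt1, Akt2 and Foxo1 (4 of 9) beside 24.2%. The median percentile over genes with a peak was 69.4 for H3K4me3 and 63.0 for H3K27ac in all genes, and 70.0 and 62.0 in the 9. Whether genes of this kind differ from others cannot be read from 9 genes.

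The H3K4me3 peak at the start was wide at most of the 9 genes. The widest peak reaching within 1000 bp of a start had a median width of 4301 bp at Foxo1, 3850 bp at Igf1r, 3620 bp at Irs2 (7 mice), 3205 bp at Irs1, 3085 bp at Pik3r1, 2535 bp at Akt2, 2531 bp at Insr, 1706 bp at Igf1 and 1031 bp at Akt1. As percentiles of width in the own list, the medians were 99.2 for Foxo1, 99.03 for Irs2, 98.2 for Igf1r, 97.4 for Irs1 and 95.9 for Pik3r1, then 93.6 for Akt2, 93.2 for Insr, 78.6 for Igf1 and 53.8 for Akt1. Thus 5 of the 9 genes were at or above 95, against 6.66% of the 14232 genes with such a peak, whose median was 68.1. By height, the medians of the same 5 genes ranged from 55.9 (Irs2) to 79.7 (Pik3r1). Mouse 7, with the shortest H3K4me3 list, had the narrowest peak at each of the 8 genes where it had one, and the Igf1r peak was 261 bp wide there against 2088 to 4281 bp in the others.

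**Figure D2:**
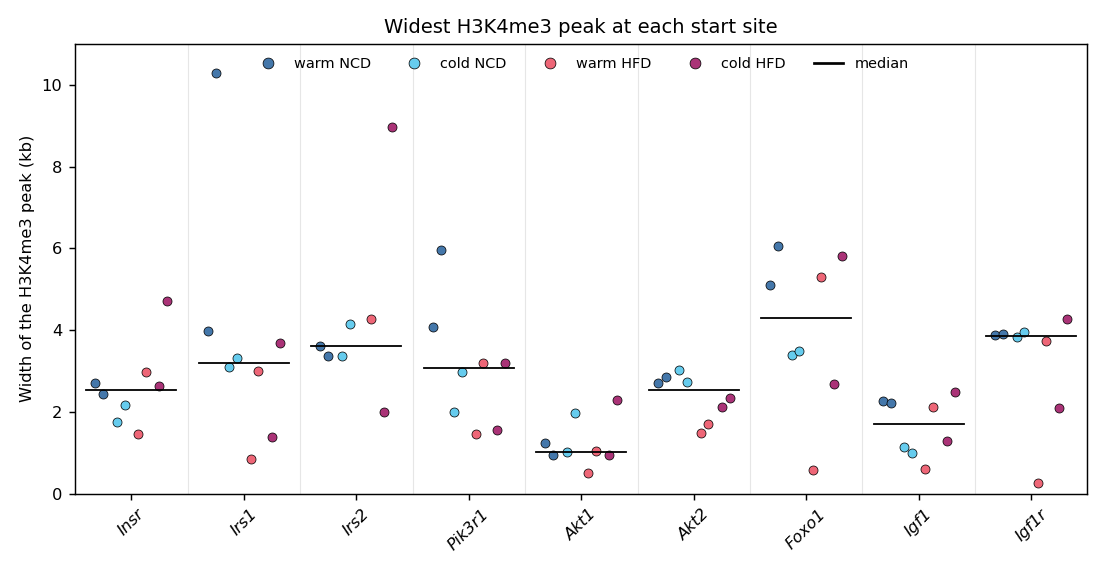
Width of the widest H3K4me3 peak at the start site (vertical axis, kb) for 9 genes, 1 point per mouse coloured by condition and a line for the median. Foxo1 has the highest median, 4301 bp, Akt1 the lowest, and a peak of 10298 bp at Irs1 in mouse 2 is the widest.

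Distal H3K27ac was concentrated in Pik3r1 and Akt2. The number of distal regions was 20 at Akt2, 19 at Pik3r1, 13 at Insr, 8 at Foxo1, 7 at Igf1r, 5 at Irs1, 5 at Igf1, 3 at Irs2 and 2 at Akt1, 82 in all, and 13 at Pik3r1 and 9 at Akt2 were found in 2 or more mice. Counted that way and per 100 kb of window, Pik3r1 (10.2) and Akt2 (10.1) were at percentiles 99.05 and 99.01 of all protein-coding genes, whose median was 0, and Igf1 (3.37) and Insr (3.04) at 86.6 and 85.4. The numbers followed the length of the lists, with 4 to 17 distal peaks at Pik3r1 in mice 1, 2, 4, 5, 8 and 11 against 0 and 1 in mice 7 and 10, and 5 to 16 at Akt2 against 2 and 4.

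**Figure D3:**
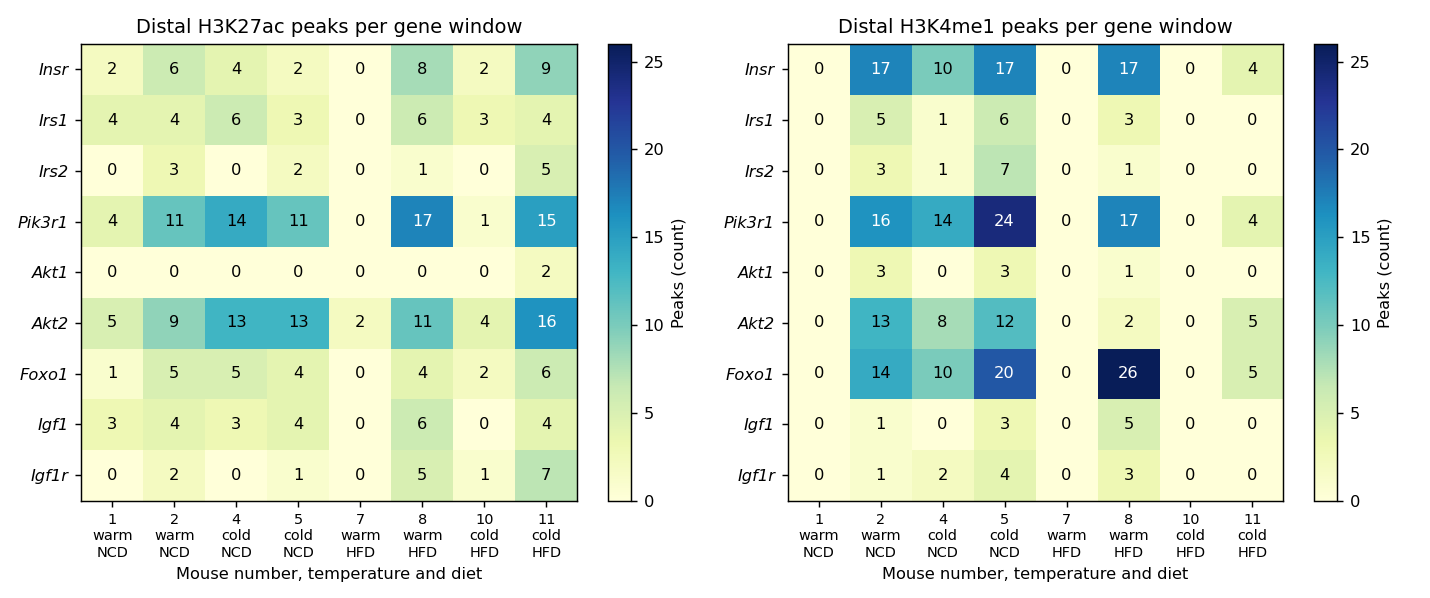
Number of distal peaks (colour and printed count) in each gene window (rows) and mouse (columns, with temperature and diet), for H3K27ac on the left and H3K4me1 on the right. Pik3r1 and Akt2 have the most H3K27ac, and mice 1, 7 and 10 have no H3K4me1 peak in any window.

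H3K4me1 gave another order, with Foxo1 beside Pik3r1 at its head. Its distal regions numbered 35 at Foxo1, 34 at Pik3r1, 28 at Insr and 16 at Akt2, and 7 to 9 at Irs1, Irs2, Igf1 and Igf1r, against 3 at Akt1. Counting regions in 2 or more mice per 100 kb, Pik3r1 (18.0) was at the 99.8 percentile of genes, Foxo1 (12.8) at 99.02, Akt2 (8.96) at 96.8 and Insr (8.10) at 96.1. At Foxo1, 4 to 6 distal H3K27ac peaks stood beside 5 to 26 H3K4me1 peaks in mice 2, 4, 5, 8 and 11. In those 5 mice, the ones with over 1000 H3K4me1 peaks, 90 of 255 distal H3K27ac peaks in the windows overlapped an H3K4me1 peak of the same mouse, 10.3% to 67.5% per mouse beside 11.2% to 46.5% over all distal H3K27ac peaks, the windows being higher in 4 of 5 mice. H3K27me3 had no peak in any of the 9 windows in any mouse, while 17.2% of all genes had an H3K27me3 region in theirs. With lists as short as 20 peaks, this says only that no enrichment was called.

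**Figure D4:**
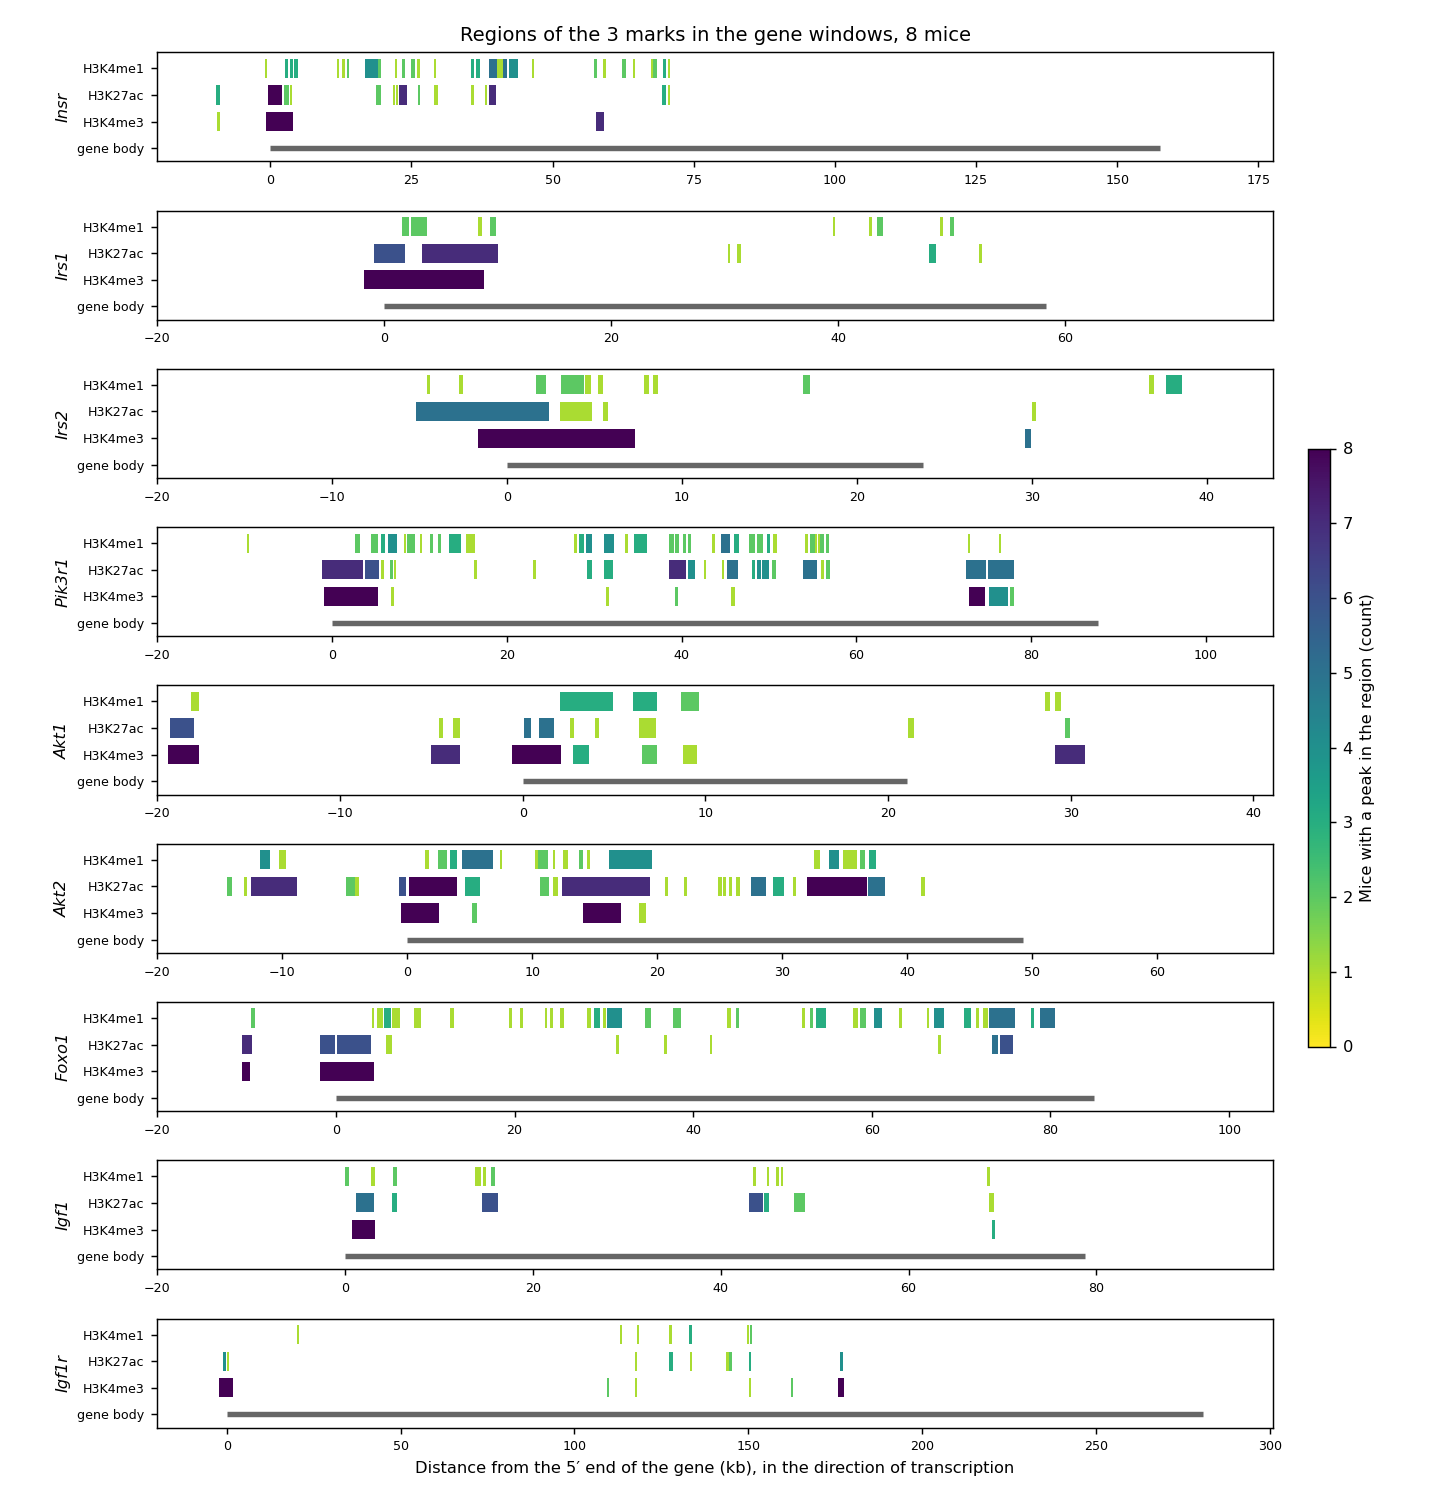
Regions of H3K4me3, H3K27ac and H3K4me1 in each gene window by distance from the 5′ end of the gene (horizontal axis, kb, in the direction of transcription, a different scale per gene), coloured by the number of mice with a peak, with the gene body in grey. Dark H3K4me3 bars away from the 5′ end are seen in Igf1r, Foxo1, Pik3r1, Akt2 and Insr, and in the Akt1 window at the start sites of its neighbours.

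Whether diet or cold changed these marks was tested over mice in all genes at once. For presence, a feature was called when all 4 mice of one diet or temperature had a peak and none of the other 4 did. No member start site was called for H3K4me3 by diet or temperature, where 0.177% and 0.0637% of 14128 start sites were, nor for H3K27ac, where 0.13% and 0.102% of 10785 were. None of the 82 distal H3K27ac regions was called, against 0.0899% (diet) and 0.396% (temperature) of 33364. Against shares this small, counts of 0 among 9 genes or 82 regions are no result about these genes. By the exact Fisher test the other members were at p of 0.429 or above, Akt1 and Foxo1 having H3K27ac at the start in 4 NCD and 2 HFD mice, and Pik3r1 in 2 warm and 4 cold. The Pik3r1 count leaves out warm mouse 2, whose H3K27ac peak, at 96.3, covered a start but had its summit farther off.

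**Figure D5:**
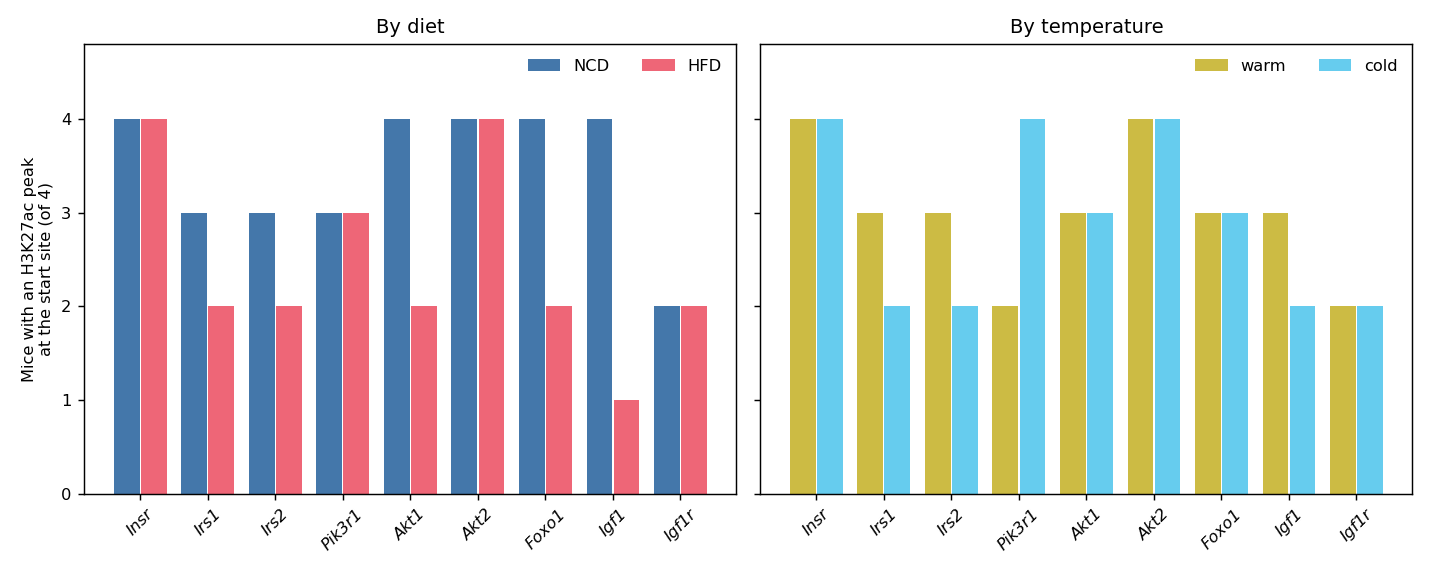
Number of mice with an H3K27ac peak at the start site (vertical axis, of 4) for 9 genes, by diet on the left and temperature on the right. Igf1 has the largest difference, 4 NCD mice against 1 HFD mouse, and Insr and Akt2 have 4 in every group.

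Height was tested with limma on normal scores of the within-list ranks, in units of about 1 SD of the ranked start sites, over genes with a peak in all 8 mice. The members that entered were 6 for H3K4me3 and 2 for H3K27ac. No gene passed an adjusted p of 0.05, 0% of 9106 for H3K4me3 by diet, temperature or their interaction and 0% of 682 for H3K27ac. At an unadjusted p under 0.05 there were 506, 479 and 405 genes for H3K4me3 and 57, 23 and 52 for H3K27ac. The member with the lowest p by diet was Irs1 for H3K4me3, with a difference HFD minus NCD of -0.62 ± 0.50 (SE, limma adjusted p = 0.92, mean scores -0.65 on NCD and -1.27 on HFD), and Akt2 for H3K27ac, with -0.76 ± 0.52 (limma adjusted p = 0.81). The Irs1 difference was -0.38 without mouse 7. By temperature the lowest p was at Igf1r for H3K4me3, cold minus warm -0.96 ± 0.63 (limma adjusted p = 0.91), which was -0.21 without mouse 10, -0.31 without mouse 8 and -0.35 with summits within 2000 bp. For H3K27ac it was at Akt2, 0.59 ± 0.52 (limma adjusted p = 0.98), which was 0.37 without mouse 10 and 0.14 with summits within 2000 bp. The interaction of diet and temperature had its lowest p at Insr for H3K4me3, 2.70 ± 1.38 (limma adjusted p = 0.92), a value of 0.67 without mouse 7 and 4.71 without mouse 8.

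The next patterns were picked out after their values were seen, since 1 mouse decided each of them. At Igf1, leaving out mouse 8 made H3K27ac at the start a call for NCD, 4 of 4 mice against 0 of 3, as for 0.42% of 10718 start sites. An intronic Igf1r region 127921 bp downstream of the start, chr7:68080008-68081077, had H3K27ac in mice 8, 10 and 11, at percentiles of 75.3, 49.9 and 89.5, and in none of 4 NCD mice. Without mouse 7 it was a call for HFD, as for 0.303% of 33361 regions in either direction. At Akt2, 2 intronic regions, chr7:27596160-27597406 and chr7:27620833-27621718, had H3K27ac in mice 4, 5 and 11 and in none of 4 warm mice, and without mouse 10 they were calls for cold, as for 2.57% of 33347 regions. The 2 Akt2 regions made 2 of 82 in the windows, near that share. The region chr7:27596160-27597406 holds a RefSeq start of Akt2, at 27596830, so it is distal only by the GENCODE basic starts. Leaving out any other single mouse gave no call at a member start site or distal H3K27ac region. Without both mice 7 and 10, 6 of the 82 regions were calls by diet (2 each at Insr and Igf1r, 1 each at Pik3r1 and Igf1, all in HFD mice) beside 4.38% of 33344 regions, and the same 2 Akt2 regions by temperature beside 2.59%. With 2 HFD mice against 4 NCD mice, or 3 against 3, the smallest exact Fisher p is 0.0667 or 0.1, so these last calls rest on the pattern alone.

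A list of 52 other genes of the pathway, from insulin itself to IGF-binding proteins, gave the setting. H3K4me3 was at a start site in at least 1 mouse for 49 of the 52 (94.2%, all genes 64.4%) and in all 8 for 25 (48.1%, all genes 41.5%). H3K27ac was there in at least 1 mouse for 39 (75.0%, all genes 49.2%) and in all 8 for 3 (5.77%, all genes 3.11%). The 3 with H3K27ac in all 8 mice were Shc1 (an adaptor of the receptors), Slc2a4 (the insulin-responsive glucose transporter GLUT4), at median percentiles of 94.2 and 94.6, and Igfbp4 (an IGF-binding protein), at 77.4. The 3 with no H3K4me3 were Ins1, Ins2 and Igfbp1, the insulin genes of the pancreas and a binding protein made mainly in the liver. No gene of this list was called by diet or temperature, where 0.0637% to 0.177% of all start sites with a peak were. Against shares this small, a count of 0 among 52 genes is no result about them. Trib3, which encodes a pseudokinase that binds AKT, came nearest, with H3K27ac at the start in 4 cold mice and 1 warm mouse (exact Fisher p = 0.143), a gene named after its value was seen.

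The gene most like each member was the one with the smallest mean absolute difference in start-site percentile over the 16 H3K4me3 and H3K27ac lists. Akt2 was nearest to Spag9, with a mean difference of 5.08 percentile points, Akt1 to Eid2b (5.23), Igf1r to Fkbp9 (6.12), Insr to Poldip3 (6.17), Irs1 to Tnrc6c (6.63), Irs2 to Mt2 (9.82) and Igf1 to Adamts12 (10.3). Pik3r1 and Foxo1 had less close neighbours, Hes6 at 15.1 and Tbc1d4 at 16.0. Both had lists counted as 0 in which a peak covered the start with its summit farther off. These were both marks of mouse 2 at Pik3r1 and H3K4me3 of mice 2 and 4 at Foxo1. Irs2, at 9.82, had such a list too, H3K4me3 of mouse 11. The part of this in the distances was not tested. The median distance to all genes was 34.8 to 62.6 points.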

How the data were processed

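ChIP-seq peak lists of 4 histone marks in 8 mice were used, 1 list per mark and mouse, with no mouse shared between conditions. According to the study's methods and the submitters' processing notes, the authors trimmed reads with cutadapt, aligned them to GRCm38 with Bowtie2 and called peaks with MACS2 against the input of the same mouse. The deposited narrowPeak files give, per peak, the fold enrichment over input (a ratio), the −log10 p and −log10 q, and the summit. The lowest deposited −log10 q was 1.30. The authors' read depth is not in these values, so the length of a list stands in for it, and a missing peak can reflect a shallow or weakly enriched library. Samples were grouped by the titles in the labels. The methods name no test between conditions for these libraries, and they can be read as using tissue of more than 1 mouse per experiment, in which case the p-values measure the spread between samples.

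Each peak was given its percentile of fold enrichment within its own list. Start sites were those of GENCODE M21 basic, a peak belonged to one when its summit lay within 1000 bp, and the highest peak was kept per gene. Regions were unions of peaks over the 8 mice sharing at least 1 bp. Ranks of start-site peaks were turned into normal scores and fitted with limma 3.58.1 (R 4.3.3), with diet and temperature in one fit over all genes and their interaction in a second, and p-values were adjusted by Benjamini-Hochberg over all genes fitted at 0.05. Presence was tested by exact two-sided Fisher tests (scipy 1.17.1). Both procedures were tested on simulated data. Peaks lay within the chromosome lengths of the GRCm38.p6 reference. Sequences came from RefSeq GRCm38.p6, and all 13 promoter windows matched the genome. Named were all members, the nearest gene of each, regions with a peak in all 8 mice, the highest distal H3K27ac region of each member, regions called, and of the pathway list any gene called. The members, the gene lists, the rule and the tests were chosen with earlier results of these data known.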

Additional observations from a re-analysis of the deposited data

Results flagged for a closer look

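The start-site percentile of each member was examined in every group of 4 mice (NCD, HFD, warm, cold) in which all 4 had a peak, 40 groups in all. In 10 of them the lowest mouse stood apart, by Dixon's 95% criterion on its gap to the next mouse. Chance meets this criterion in about 1 of 20 groups of normally distributed values. That rate cannot be set against 10 of 40, because percentiles are bounded and the groups overlap. Each value enters a diet group and a temperature group, and Insr H3K27ac in mice 7 and 4 and Akt2 H3K27ac in mouse 7 were flagged in both. The lowest mouse was number 7 in 5 groups, number 4 in 3 and number 10 in 2.

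Mouse 7 was at 0.348 for Insr H3K4me3 among warm mice, whose other 3 values were 92.5 to 95.1. For Insr H3K27ac it was at 5.63, against 93.7 to 99.8 in the other warm mice and 94.9 to 99.8 in the other HFD mice. For Akt2 H3K27ac it was at 23.5, against 87.4 to 97.7 (warm) and 87.4 to 96.9 (HFD). This mouse had the shortest H3K4me3, H3K27ac and H3K4me1 lists, and the part of that in these values was not tested.

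Mouse 4 was at 77.5 for Insr H3K27ac, against 93.7 to 96.5 in the other NCD mice and 94.9 to 96.8 in the other cold mice, and at 4.00 for Foxo1 H3K27ac, against 76.9 to 84.8 in the other NCD mice. Ranked by −log10 q, these 2 values of mouse 4 were 92.5 and 65.1, so they depended on the use of fold enrichment. Mouse 10 was at 43.4 for Akt1 H3K4me3, against 70.4 to 71.5, and at 14.4 for Pik3r1 H3K27ac, against 85.2 to 91.5 in the other cold mice. The Pik3r1 value of mouse 4 in that group came from the short-transcript start, and its region at the long start was at 6.67.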

How the results depend on the processing

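No paired analysis was possible because the conditions compared hold different mice, which share no number. Ranking by −log10 q moved none of the 18 median percentiles of the members beyond 1 SD over mice. That SD was 5.47 to 37.3 points, a wide yardstick, so this does not show that the percentiles are stable. The Foxo1 H3K27ac median moved most, from 61.4 to 71.7, and its value in mouse 4 moved from 4.00 to 65.1. Genes called by rank were 0 in the fits reported, and by diet under −log10 q 3 (H3K4me3) and 1 (H3K27ac), by temperature for H3K27ac with 6 mice sufficing and absent peaks ranked lowest 1, and by the H3K27ac interaction with summits within 2000 bp 1 and, leaving out 1 mouse, 0 to 12 (12 without mouse 8). No member reached an adjusted p of 0.05 in any of these limma fits. Start sites called for presence, reported as 25 and 9 (H3K4me3, diet and temperature) and 14 and 11 (H3K27ac), were 4, 9 and 5 for the last 3 with −log10 q of at least 5, and 7 for H3K27ac by temperature at 2000 bp. Leaving out 1 mouse they ranged from 25 to 248, 9 to 105, 16 to 107 and 13 to 54, the highest without mouse 11 (diet) and mouse 10 (temperature). Leaving out a mouse relaxes the presence rule, so these counts, and those of distal regions, could only stay or rise. Why mice 11 and 10 gave the most was not tested. Distal H3K27ac regions, reported as 30 and 132, were 12 and 36 at −log10 q of at least 5 and 87 by temperature when peaks covered at least 50% of the region, and 31 to 315 and 136 to 858 leaving out 1 mouse, the highest without mice 1 and 10. Chosen after seeing the data, a peak over the start site gave 52 for H3K4me3 by diet, and leaving out mice 7 and 10 gave 39 and 117 (H3K4me3), 76 and 58 (H3K27ac), 1462 and 862 (distal regions) and 1 by H3K27ac rank and diet. The length of the lists limits presence, and with 4 against 4 mice no single feature could pass an adjustment over all of them.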
